A study of Homo sapiens with 10 samples.

Results

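The 41 genes described here encode the machinery that copies chromosomal DNA: the origin recognition complex and its loading factors, the MCM helicase with its partners, the sliding clamp and clamp loader, the replicative polymerases with primase, and the proteins of single-stranded DNA and the lagging strand. They were selected by gene name, with no threshold on a measured value, from 19301 named features. Of the 41, 33 were found under their current symbol and 7 under an older one (ORC1L to ORC6L for ORC1 to ORC6, and CDC45L for CDC45). RFC2 was measured only in a feature shared with WBSCR27, so it is given apart and 40 genes are counted. All 40 exceeded 1 FPKM in every library and passed the filter on low values.

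RNA with poly(A) tails was sequenced from HEK293FT cells, an established human line of embryonic kidney origin that takes up plasmids easily, with lentivirally integrated Gaussia and Cypridina luciferase reporters. Every culture was transfected with 59 ng of plasmid for dCas9~VP, a catalytically dead Cas9 fused to the VP64 activator, and with 679.4 ng of carrier plasmid, 1 day after plating 125000 cells per well, and RNA was taken 3 days later. The groups INT, P4P6, TOP1 and sgRNA also received 11.6 ng of a U6-driven guide plasmid directed at the Gaussia reporter, and the CasVP group had the activator with no guide. Each group has 2 libraries. The labels do not say what sets the INT, P4P6 and TOP1 guides apart from each other, the name TOP1 is here that of a guide and not of the topoisomerase gene, and no guide is labelled as directed at a replication gene. Separate cultures are not named for the libraries of a group, so p-values measure the spread between these samples, which may be technical. Libraries are named by their column index, 0 or 1. The cells are transiently transfected bulk cultures, in which fewer dividing cells and less of these RNAs per cell cannot be told apart.

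Licensing takes place when ORC, with CDC6 and CDT1, loads MCM2 to MCM7 on DNA in G1 phase. In S phase CDC45 and GINS join the MCM ring to form the active helicase, RPA coats the exposed single strands, and RFC loads the PCNA clamp that holds the polymerases on their template. Polymerase alpha with primase starts each strand, polymerase epsilon extends the leading strand, polymerase delta extends the lagging strand, and FEN1 and LIG1 process and seal Okazaki fragments. Many of these genes are classical targets of E2F transcription factors, whose activity rises as cells enter S phase. HEK293 derivatives carry adenoviral E1A, which releases E2F from the RB proteins.

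The promoter windows of 4 genes that passed the test described later, from the clamp (PCNA), the clamp loader (RFC3), the helicase (MCM6) and the polymerases (POLE), are shown because they carry the E2F-type letters shared by many of the genes. The windows are those of RefSeq on GRCh38.p14, with 250 bases before and 50 after the annotated start, and read in the direction of transcription. Capitals mark a match, on either strand, to the motif TTCCCGC, to its relative TTCGCGC or to another form, TTGGCGC. PCNA has 2 such windows in RefSeq, and the one with a match is shown.
PCNA, chr20:5126573-5126872, minus strand: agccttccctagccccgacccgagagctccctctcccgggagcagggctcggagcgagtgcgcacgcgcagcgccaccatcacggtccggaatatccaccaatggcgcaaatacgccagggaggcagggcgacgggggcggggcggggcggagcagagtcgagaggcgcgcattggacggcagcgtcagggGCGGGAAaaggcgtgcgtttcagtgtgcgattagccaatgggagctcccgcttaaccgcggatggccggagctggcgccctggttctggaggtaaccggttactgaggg
RFC3, chr13:33817899-33818198, plus strand: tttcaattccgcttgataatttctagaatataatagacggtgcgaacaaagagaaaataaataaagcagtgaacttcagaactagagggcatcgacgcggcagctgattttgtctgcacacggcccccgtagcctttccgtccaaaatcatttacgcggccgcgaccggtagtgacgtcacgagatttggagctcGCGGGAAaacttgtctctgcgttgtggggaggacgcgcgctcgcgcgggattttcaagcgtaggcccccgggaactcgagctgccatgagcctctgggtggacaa
MCM6, chr2:135876394-135876693, minus strand: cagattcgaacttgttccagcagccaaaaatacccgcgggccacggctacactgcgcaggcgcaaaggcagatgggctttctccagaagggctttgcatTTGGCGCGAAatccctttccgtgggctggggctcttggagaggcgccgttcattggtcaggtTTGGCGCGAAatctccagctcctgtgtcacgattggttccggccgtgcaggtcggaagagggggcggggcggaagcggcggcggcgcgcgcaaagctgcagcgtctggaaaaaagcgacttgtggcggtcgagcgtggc
POLE, chr12:132687293-132687592, minus strand: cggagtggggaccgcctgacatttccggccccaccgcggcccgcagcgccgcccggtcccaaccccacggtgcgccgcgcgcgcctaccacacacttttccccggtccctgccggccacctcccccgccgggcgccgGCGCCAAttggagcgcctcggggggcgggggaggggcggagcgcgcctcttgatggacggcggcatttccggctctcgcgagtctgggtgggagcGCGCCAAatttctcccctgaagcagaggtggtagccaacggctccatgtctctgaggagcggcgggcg
MCM6 holds 4 overlapping matches in 2 stretches of identical letters, POLE holds 2 and the windows of PCNA and RFC3 hold 1 each. Windows were found for 35 of the 41 genes, 6 of which have several, giving 43 windows. An E2F-type match was present in 26 of the 43 windows (60.5%), against 11% of the 35116 windows of all genes and 13.8% of the 22198 windows of protein-coding genes. The share was 85.7% of 7 clamp and clamp loader windows, 66.7% of 3 windows of RPA and lagging strand genes, 64.3% of 14 helicase windows, 50% of 10 polymerase windows and 44.4% of 9 origin windows. CCAAT was present in 58.1% of the members' windows, against 34.6% of all windows and 34.7% of those of protein-coding genes. GGGCGG was present in 72.1%, against 45% of all windows and 56.3% of those of protein-coding genes. Both were counted on either strand. Of the 44 E2F-type matches in these windows, 9 overlapped a CCAAT or GGGCGG match. The windows of FEN1 and ORC5, which also passed the test, held no E2F-type match. For RPA2, which passed as well, no window was found. A match is a description of letters, not of a bound site.

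All 40 genes were well expressed. Their median level over the 10 libraries was 45.7 FPKM (fragments per kilobase of transcript, scaled to the fragments mapped), against 14.4 FPKM over the 11574 features with a mean of at least 1 FPKM. FPKM is per length, so levels are set side by side between genes, with no correction for GC content or for reads shared with other genes. PCNA was the highest at 433 FPKM and ORC1 the lowest at 20.6 FPKM, a ratio of 21.0. By role, the median level was 88.6 FPKM for the helicase genes, 78.6 FPKM for RPA and lagging strand genes, 69.0 FPKM for clamp genes, 38.2 FPKM for polymerase genes and 36.6 FPKM for origin genes. The ranges of the roles overlap widely. Across libraries the genes varied little: the coefficient of variation over all 10 libraries had a median of 5.78% (2.2 to 10.8%), against 5.62% for the 4303 features with levels in the same range. The widest ratio between the highest and the lowest library of any of the 40 genes was 1.44, in LIG1.

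**Figure D1:**
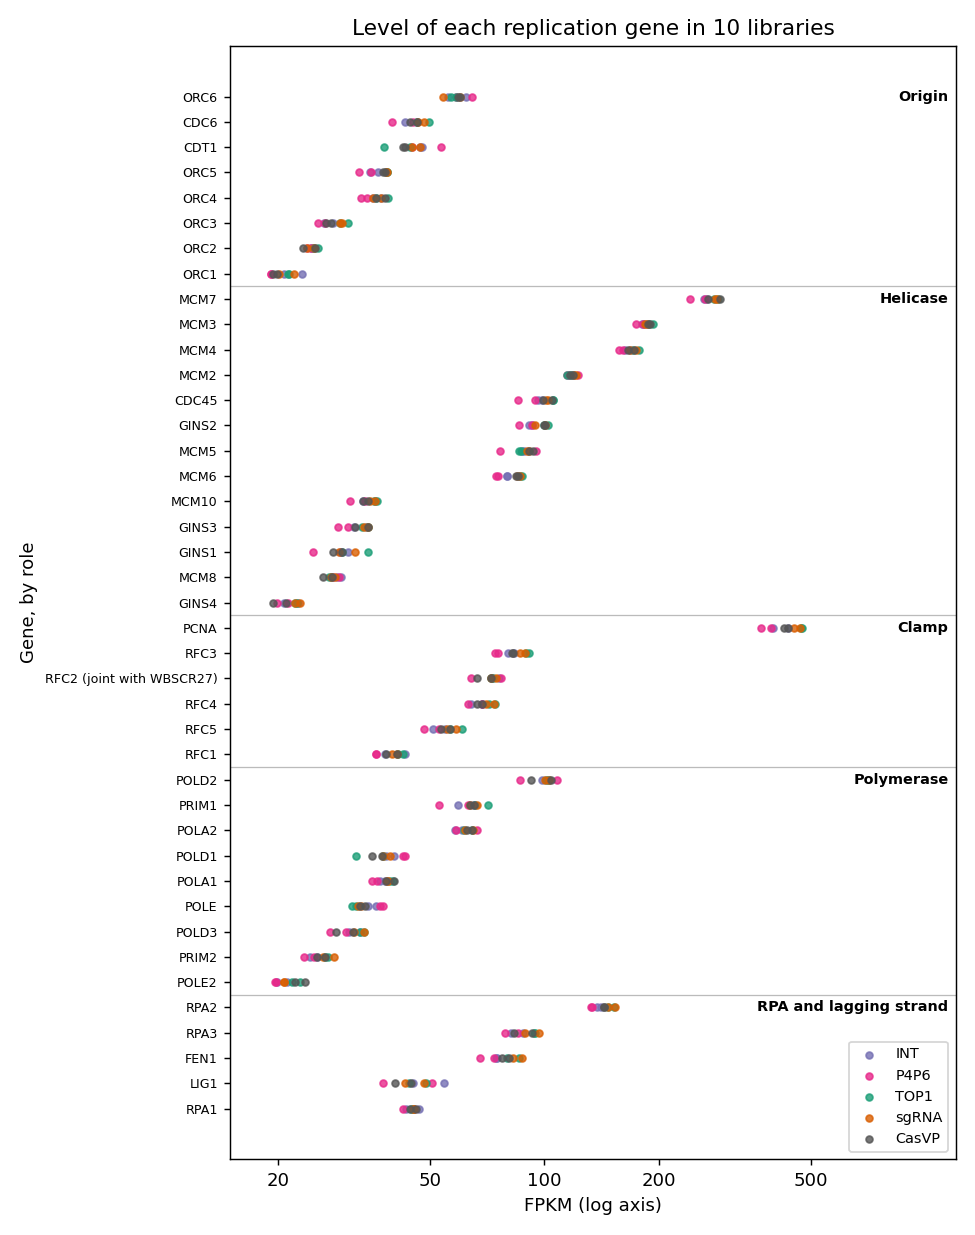
FPKM (log axis) of each gene in each library, grouped by role and sorted by mean level. Each point is 1 library, coloured by group. Genes differ 21.0-fold in mean level, whereas no counted gene differs more than 1.44-fold between libraries. P4P6 replicate 1 often lies at the left end of a gene's points, as the lowest library for 27 of the 40 counted genes. P4P6 replicate 0 is the lowest for 5 and the highest for 8.

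The order of levels was compared within 5 complexes, the polymerase complexes not among them, and changed between libraries only for neighbouring genes. Among MCM2 to MCM7, which form a ring with 1 copy of each subunit, the RNA levels differed 3.30-fold. The order MCM7, MCM3, MCM4, MCM2, MCM5, MCM6 held in 9 of 10 libraries. The GINS order (GINS2, GINS3, GINS1, GINS4), the clamp loader order (RFC3, RFC4, RFC5, RFC1) and the RPA order (RPA2, RPA3, RPA1) each held in 10 of 10. The ORC order (ORC6, ORC5, ORC4, ORC3, ORC2, ORC1) held in 6 of 10, and the only other order had ORC4 and ORC5 exchanged, whose means were 36.2 and 36.9 FPKM. MCM5 and MCM6, at 88.6 and 82.5 FPKM, were exchanged in the 1 library with another MCM order, TOP1 replicate 1. In these 5 complexes, the order of neighbours changed between libraries for these 2 pairs.

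The estimated sequencing depth ranged from 0.694 (P4P6 replicate 0) to 1.02 (TOP1 replicate 0) of that of CasVP replicate 0. It comes from the smallest steps of low FPKM values, 73.8% of which were whole multiples of a step within a tolerance of 0.05, and total read counts are unknown. The upper quartile of FPKM was 17.3 to 17.7 in all libraries. The P4P6 libraries differed most from each other: over the 40 genes, the median absolute log2 difference between the libraries of a group was 0.097 in P4P6, 0.067 in INT, 0.037 in TOP1, 0.051 in sgRNA and 0.059 in CasVP. Over all tested features it was 0.099 in P4P6, 0.078 in INT, 0.067 in TOP1, 0.060 in sgRNA and 0.055 in CasVP. P4P6 replicate 1 had the lowest value of all 10 libraries for 27 of the 40 genes, and TOP1 replicate 0 the highest for 13. P4P6 replicate 0 had the lowest value for 5 genes and the highest for 8. These counts were not made over all tested features, so they may not be particular to the replication genes. Of 7 genes typical of HEK293 cells, 5 had at least 1 FPKM, with LIN28B the highest at 24.9 FPKM. Of 11 measured markers of other cell types only COL1A1 reached 1 FPKM, at 1.43 FPKM, and their summed level was 3.37 to 3.61 FPKM with INT, 3.34 to 4.13 with P4P6, 2.92 to 3.10 with TOP1, 3.10 to 3.58 with sgRNA and 3.47 to 3.79 with CasVP.

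Differences between groups were small for all 40 genes. Against CasVP, 0 of the 40 passed limma's moderated test at an adjusted p of 0.05 (Benjamini-Hochberg over 11574 features, log2(FPKM + 1) scale) with any guide. The share of all tested features that passed was 0.0173% with INT, 0.00864% with P4P6, 0.00864% with TOP1, 0.0173% with sgRNA and 0.0173% with the 4 guides pooled. At an unadjusted p under 0.05 the genes numbered 4 with INT, 17 with P4P6, 4 with TOP1, 2 with sgRNA and 1 with all guides, which is 10%, 42.5%, 10%, 5% and 2.5% of 40. The shares of all tested features at that level were 8.86%, 22.2%, 9.22%, 6.02% and 7.43% in the same order of groups. Against sgRNA, 7 of the 40 passed with P4P6, where 11.5% of all features passed (4.33% higher and 7.17% lower), and 0 of 40 with INT or TOP1, where 0.00864% of features passed in each. At an unadjusted p under 0.05 the genes numbered 5 with INT, 21 with P4P6 and 0 with TOP1, which is 12.5%, 52.5% and 0% of 40, against 8.77%, 30.3% and 1.68% of features. In all 8 comparisons the 95% confidence interval of every one of the 40 genes lay within a 1.5-fold change in either direction. These intervals assume the same spread in every group. The P4P6 libraries differed most from each other, so intervals with P4P6 may be too narrow.

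The median log2 change of the 40 genes against CasVP was -0.025 with INT, -0.092 with P4P6, 0.047 with TOP1 and 0.041 with sgRNA, while the median of all tested features lay between -0.013 and 0.0025. After quantile normalization the median of the 40 genes was -0.0052 with INT, -0.038 with P4P6, 0.019 with TOP1 and 0.011 with sgRNA, and without INT replicate 1 it was 0.0039 with INT. The estimate was below 0 for 26 of 40 genes with INT, 32 with P4P6, 9 with TOP1 and 10 with sgRNA. Of all tested features, 49.5% were above 0 with INT, 46.1% with P4P6, 50.8% with TOP1 and 50.5% with sgRNA. These comparisons share the CasVP libraries, and with P4P6 and TOP1 the changes of all features also varied with GC content (given below). The libraries of the compared groups did not overlap for 12 genes lower and 6 higher with INT, 21 lower and 4 higher with P4P6, 3 lower and 18 higher with TOP1, and 2 lower and 15 higher with sgRNA. Of all tested features, the libraries were lower without overlap for 23.1% and higher for 20.3% with INT. The shares were 28.1% lower and 23.4% higher with P4P6, 23.5% lower and 24.7% higher with TOP1, and 22% lower and 24% higher with sgRNA. No gene of the 40 separated all 8 guide libraries from both CasVP libraries, which 4.82% of tested features did.

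**Figure D2:**
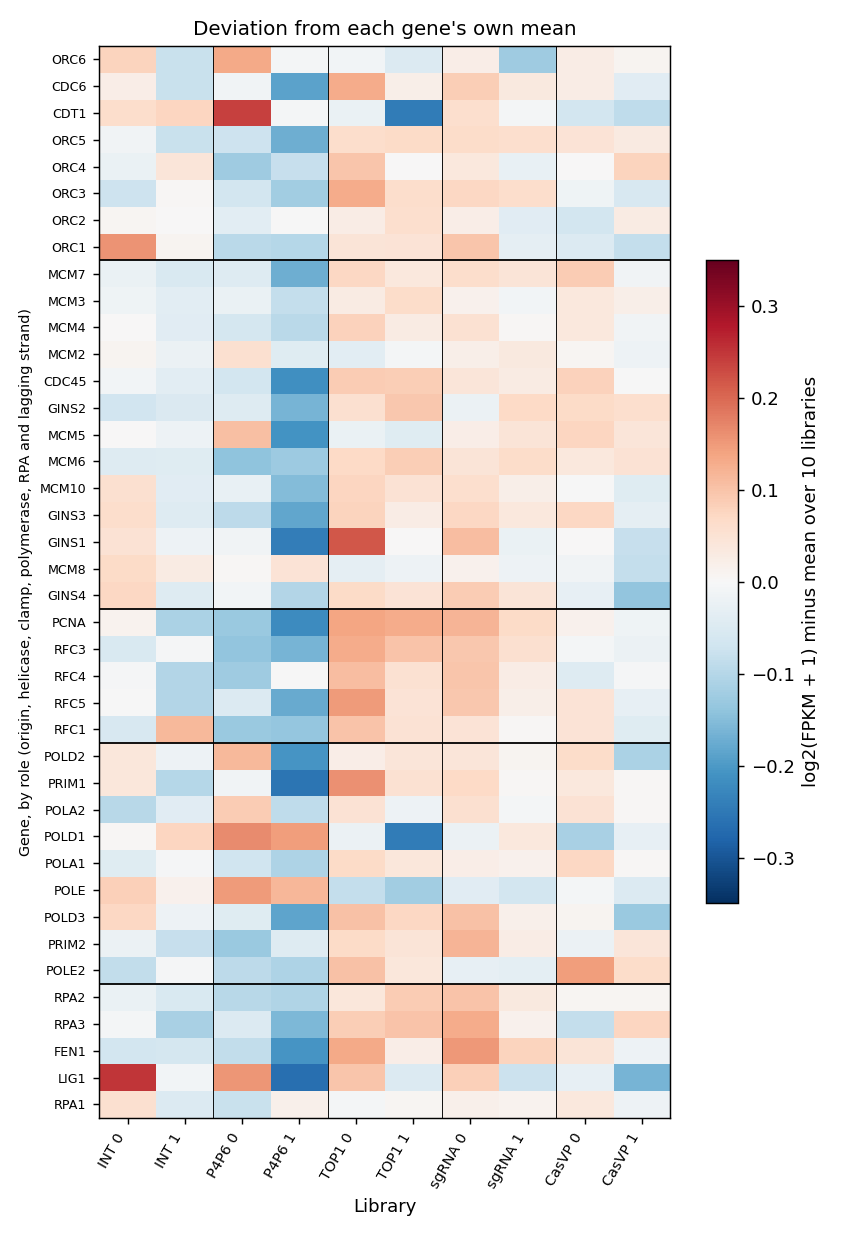
Deviation of log2(FPKM + 1) from each gene's mean over the 10 libraries (colour), with the 40 genes in rows by role and the libraries in columns. The column of P4P6 replicate 1 is the lowest for 27 genes, a count not made over all tested features. POLE and POLD1 are higher in both P4P6 libraries than in all others.

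The mean deviation of the 40 genes from their own means, on the log2 scale, was 0.012 and -0.030 in the INT libraries, -0.024 and -0.114 in P4P6, 0.066 and 0.022 in TOP1, 0.058 and 0.013 in sgRNA, and 0.016 and -0.020 in CasVP. The 5 clamp and clamp loader genes spread furthest between groups, with -0.115 and -0.139 in P4P6, 0.125 and 0.076 in TOP1, 0.090 and 0.035 in sgRNA, and 0.012 and -0.023 in CasVP. For them the P4P6 pair lay below, and the TOP1 and sgRNA pairs above, both CasVP libraries. Their transcripts have 39.1 to 45.4% GC, in the lowest and next-lowest quartiles of GC content. In these quartiles the medians of all features against CasVP were -0.060 and -0.037 with P4P6, and 0.035 and 0.022 with TOP1. The part of GC content in the differences between roles was not tested. The 9 polymerase and primase genes averaged 0.019 and -0.081 in the P4P6 libraries and 0.027 and -0.022 in CasVP, so that the groups overlapped. In every group the library with index 0 had the higher mean. Index 0 was the higher library in all 5 groups for 15 of the 40 genes (37.5%), against 11.02% of tested features, and index 1 for 1 gene (2.5%), against 8.75%. The labels do not say whether the index marks a batch.

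**Figure D3:**
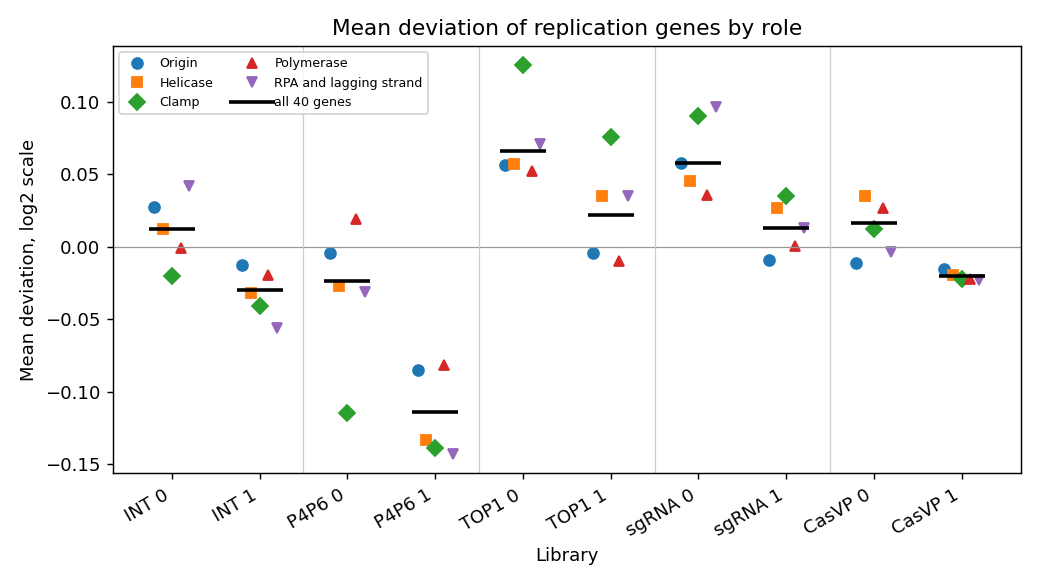
Mean deviation of the genes of each role (symbols) and of all 40 genes (black bars) from each gene's own mean, per library, on the log2(FPKM + 1) scale. The clamp genes average -0.115 and -0.139 in the P4P6 libraries, below their mean in all other libraries, and 0.125 and 0.076 in the TOP1 libraries, against 0.012 and -0.023 in CasVP. All clamp genes shown lie in the lower quartiles of GC content, where features in general shifted in the same directions with P4P6 and TOP1.

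Among the origin genes, ORC5 was the only one to pass, with P4P6 against sgRNA. ORC5, a subunit of the ATP-binding core of the complex, was at 36.6 and 34.9 FPKM with INT, 35.04 and 32.7 with P4P6, 38.5 and 38.7 with TOP1, 38.6 and 38.4 with sgRNA and 38.2 and 37.8 with CasVP. Both P4P6 libraries lay below all TOP1, sgRNA and CasVP libraries, and ORC5 fell with P4P6 relative to sgRNA by a log2 difference of -0.18 (SE 0.0486, limma adjusted p = 0.0410). ORC6, the most abundant origin gene, was at 62.3 and 55.9 FPKM with INT, 64.8 and 58.7 with P4P6, 58.6 and 57.02 with TOP1, 59.95 and 54.04 with sgRNA and 60.1 and 59.4 with CasVP. P4P6 replicate 0 was the highest library and sgRNA replicate 1 the lowest, and the P4P6 and sgRNA libraries overlap. ORC1, the subunit whose protein is degraded after each licensing round in human cells, was at 23.1 and 20.7 FPKM with INT, 19.2 and 19.1 with P4P6, 21.2 and 21.3 with TOP1, 22.1 and 20.1 with sgRNA and 19.9 and 19.4 with CasVP. Both INT libraries lay above both CasVP libraries, with a log2 difference of 0.15 that did not pass (limma adjusted p = 0.560).

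CDC6 and CDT1 bring MCM to the origin, and CDT1 is destroyed in S phase. CDC6 was at 46.3 and 43.1 FPKM with INT, 45.1 and 39.9 with P4P6, 49.9 and 46.2 with TOP1, 48.4 and 46.6 with sgRNA and 46.4 and 44.3 with CasVP. Both sgRNA libraries lay above both INT, both P4P6 and both CasVP libraries. With P4P6 against sgRNA the difference of -0.16 did not pass (limma adjusted p = 0.139). CDT1 was at 47.3 and 47.7 FPKM with INT, 53.6 and 44.98 with P4P6, 44.5 and 38.04 with TOP1, 47.2 and 45.03 with sgRNA and 43.2 and 42.5 with CasVP. Unlike most of the genes it was higher with P4P6 than with CasVP without overlap, by 0.19 (limma adjusted p = 0.220), and lower with TOP1 than with sgRNA by -0.16, neither of which passed. Its transcript is rich in GC (given below). Of the 8 origin genes, 6 had an estimate below 0 with P4P6 against CasVP and 6 against sgRNA.

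Of the MCM ring, MCM6 passed with P4P6 against sgRNA. It was at 79.8 and 79.97 FPKM with INT, 74.6 and 75.4 with P4P6, 86.5 and 87.5 with TOP1, 85.02 and 86.1 with sgRNA and 84.5 and 85.4 with CasVP. The 2 libraries of every group lay close together, and P4P6 was lower than all other libraries. The log2 difference was -0.19 against sgRNA (SE 0.0386, limma adjusted p = 0.0250). Against CasVP it was -0.18, the smallest adjusted p of any of the 40 genes in that comparison, which missed the threshold (limma adjusted p = 0.0750).

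MCM7, the most abundant helicase gene, was at 268 and 262 FPKM with INT, 264 and 242 with P4P6, 286 and 279 with TOP1, 284 and 281 with sgRNA and 289 and 269.6 with CasVP. Both P4P6 libraries were below both CasVP libraries, with a difference of -0.15 that did not pass (limma adjusted p = 0.157). MCM2 was at 119 and 116 FPKM with INT, 123 and 115 with P4P6, 115 and 117 with TOP1, 119.8 and 121 with sgRNA and 119 and 117 with CasVP, and had the smallest variation of the 40 genes. MCM3 was at 183 and 180.1 FPKM with INT, 182 and 174 with P4P6, 188 and 193 with TOP1, 186 and 184 with sgRNA and 189 and 187 with CasVP. For MCM3 both sgRNA libraries were just below both CasVP libraries, by -0.026 (limma adjusted p = 0.917). MCM5 was at 88.6 and 87.3 FPKM with INT, 95.3 and 76.5 with P4P6, 87.00 and 85.97 with TOP1, 89.95 and 91.4 with sgRNA and 93.2 and 91.1 with CasVP. The P4P6 libraries of MCM5 were the highest and the lowest of all, while TOP1 lay below CasVP by -0.09 and below sgRNA by -0.067, without passing. MCM4 ranged over 157 to 177 FPKM.

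CDC45, which completes the active helicase with GINS, was at 98.3 and 96.4 FPKM with INT, 94.7 and 85.1 with P4P6, 105 and 105 with TOP1, 102 and 101 with sgRNA and 105 and 98.9 with CasVP. It was lower with P4P6 than with CasVP without overlap, by -0.18, and did not pass (limma adjusted p = 0.113). GINS1 was at 30.6 and 29.1 FPKM with INT, 29.2 and 24.8 with P4P6, 34.4 and 29.5 with TOP1, 31.8 and 28.99 with sgRNA and 29.5 and 27.8 with CasVP. With TOP1 it differed from CasVP by 0.15. TOP1 replicate 1 (29.479 FPKM) and CasVP replicate 0 (29.478 FPKM) were nearly equal, so the groups barely failed to overlap. GINS2 was at 91.4 and 92.6 FPKM with INT, 92.8 and 85.5 with P4P6, 99.6 and 102 with TOP1, 94.5 and 101 with sgRNA and 100.5 and 99.8 with CasVP. INT libraries of GINS2 were below both CasVP libraries by -0.12 (limma adjusted p = 0.560). GINS4, the least abundant helicase gene, was at 22.6 and 20.7 FPKM with INT, 21.2 and 19.9 with P4P6, 22.5 and 22.1 with TOP1, 22.8 and 22.1 with sgRNA and 20.9 and 19.4 with CasVP. It was higher with sgRNA than with CasVP by 0.15 without overlap and did not pass (limma adjusted p = 0.791). GINS3 ranged over 28.7 to 34.5 FPKM and MCM10, which helps to activate the helicase, over 30.9 to 36.3 FPKM. MCM8, a relative of the ring subunits that acts in homologous recombination, was at 29.2 and 28.5 FPKM with INT, 27.95 and 28.9 with P4P6, 27.3 and 27.5 with TOP1, 28.2 and 27.6 with sgRNA and 27.6 and 26.3 with CasVP. It was the helicase-family gene with a positive estimate with P4P6 against sgRNA, 0.026, while the other 12 were below 0.

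PCNA passed with P4P6 against sgRNA and is the clamp on which polymerases and many repair proteins assemble. It was at 435 and 399 FPKM with INT, 394 and 370.2 with P4P6, 475 and 472 with TOP1, 468 and 452 with sgRNA and 436 and 426 with CasVP. P4P6 had the lowest library and TOP1 the highest, and the P4P6 pair lay below both TOP1, both sgRNA and both CasVP libraries. PCNA averaged 382 ± 16.7 FPKM with P4P6 and 460.0 ± 11.6 FPKM with sgRNA (SD, n = 2 each, limma adjusted p = 0.0250 over all features) and fell by 17.0%. On the log2 scale the difference was -0.27 (95% confidence interval -0.39 to -0.15). Against CasVP it was -0.17 (limma adjusted p = 0.115), and with TOP1 against CasVP 0.14 (limma adjusted p = 0.533), neither of which passed.

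RFC3, a small subunit of the clamp loader, was at 80.3 and 83.1 FPKM with INT, 75.6 and 74.3 with P4P6, 91.3 and 89.3 with TOP1, 88.9 and 86.6 with sgRNA and 82.9 and 82.1 with CasVP. The groups with P4P6 and INT overlap with none of the TOP1 and sgRNA libraries. It fell with P4P6 relative to sgRNA by -0.22 (SE 0.0415, limma adjusted p = 0.0232), the smallest adjusted p of the 40 genes. RFC1, the large subunit, was at 38.2 and 43.1 FPKM with INT, 36.2 and 36.1 with P4P6, 42.6 and 41.2 with TOP1, 41.1 and 39.8 with sgRNA and 41.1 and 38.5 with CasVP. The P4P6 libraries were the lowest, with a difference of -0.16 against sgRNA (limma adjusted p = 0.110). RFC4 ranged over 63.1 to 74.3 FPKM and RFC5 over 48.4 to 60.8 FPKM. The joint feature of RFC2 and WBSCR27 was at 76.2 and 72.9 FPKM with INT, 76.8 and 64.2 with P4P6, 73.5 and 72.5 with TOP1, 72.2 and 74.7 with sgRNA and 72.6 and 66.4 with CasVP, with the highest and the lowest value both in P4P6. All 5 counted clamp genes had an estimate below 0 with P4P6 against CasVP and against sgRNA, and above 0 with TOP1 and sgRNA against CasVP. All 5 lie in the lower quartiles of GC content, as given above.

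POLE, the catalytic subunit of polymerase epsilon, was the only gene of the 40 that passed as higher, with P4P6 against sgRNA. It was at 36.1 and 34.4 FPKM with INT, 37.8 and 36.98 with P4P6, 32.04 and 31.2 with TOP1, 33.05 and 32.5 with sgRNA and 33.8 and 32.8 with CasVP. Both P4P6 libraries were the highest of all, and both TOP1 libraries the lowest. POLE averaged 37.4 ± 0.573 FPKM with P4P6 and 32.8 ± 0.389 FPKM with sgRNA (SD, n = 2 each, limma adjusted p = 0.0354 over all features), a log2 difference of 0.18 (95% confidence interval 0.082 to 0.29). With TOP1 against CasVP it was -0.074, and with INT against sgRNA 0.10, neither of which passed.

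POLE2, the second subunit of the same enzyme, was at 19.9 and 21.1 FPKM with INT, 19.8 and 19.6 with P4P6, 22.8 and 21.8 with TOP1, 20.8 and 20.7 with sgRNA and 23.6 and 22.2 with CasVP. It was lower than CasVP without overlap with INT (-0.15), P4P6 (-0.21) and sgRNA (-0.14), with limma adjusted p of 0.509, 0.0884 and 0.791. The catalytic and second subunits thus had estimates of opposite sign with P4P6 against CasVP. Their transcripts also differ in length and GC content (given below). POLD1, the catalytic subunit of polymerase delta, was at 38.3 and 40.3 FPKM with INT, 42.98 and 42.5 with P4P6, 37.7 and 32.1 with TOP1, 37.7 and 39.3 with sgRNA and 35.3 and 37.5 with CasVP. Like POLE it was higher in both P4P6 libraries than in all others, by 0.23 against CasVP (limma adjusted p = 0.118) and 0.15 against sgRNA (limma adjusted p = 0.187), and did not pass. Like that of CDT1, the POLD1 transcript is rich in GC.

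POLD2, the most abundant polymerase gene, was at 102 and 98.4 FPKM with INT, 108 and 86.2 with P4P6, 101 and 103 with TOP1, 103 and 100.4 with sgRNA and 104 and 92.3 with CasVP. Its highest and lowest libraries both belong to P4P6. POLD3 was at 32.8 and 30.8 FPKM with INT, 30.2 and 27.3 with P4P6, 33.5 and 32.9 with TOP1, 33.6 and 31.6 with sgRNA and 31.4 and 28.4 with CasVP. Both TOP1 and both sgRNA libraries of POLD3 were above both CasVP libraries, by 0.15 and 0.12, with limma adjusted p of 0.537 and 0.796. POLA1, the catalytic subunit of polymerase alpha, ranged over 35.4 to 40.2 FPKM, its partner POLA2 over 58.3 to 66.4 FPKM, and the primase subunits PRIM1 and PRIM2 over 52.99 to 71.00 and 23.4 to 28.01 FPKM. None of these 4 passed in any comparison.

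RPA2 and FEN1 passed with P4P6 against sgRNA. RPA2, the middle subunit of the single-strand binding complex, was at 141 and 138 FPKM with INT, 134 and 133 with P4P6, 147 and 152 with TOP1, 153 and 147 with sgRNA and 144 and 144 with CasVP. P4P6 was lowest in both libraries, and the log2 difference against sgRNA was -0.17 (SE 0.0421, limma adjusted p = 0.0348). RPA1, the large subunit, was at 46.8 and 43.4 FPKM with INT, 42.5 and 45.5 with P4P6, 44.7 and 45.1 with TOP1, 45.4 and 45.3 with sgRNA and 46.1 and 44.4 with CasVP. Its P4P6 and sgRNA libraries overlap, and its difference with P4P6 against sgRNA was -0.044 (95% confidence interval -0.16 to 0.073). RPA3 ranged over 79.1 to 96.6 FPKM.

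FEN1, the flap endonuclease, was at 74.8 and 75.1 FPKM with INT, 73.7 and 67.8 with P4P6, 86.04 and 79.7 with TOP1, 87.2 and 82.8 with sgRNA and 80.9 and 77.4 with CasVP. Both P4P6 libraries lay below both TOP1, both sgRNA and both CasVP libraries. FEN1 fell with P4P6 relative to sgRNA by -0.26 (SE 0.0567, limma adjusted p = 0.0258). The INT libraries were also below both sgRNA libraries, by -0.18, which did not pass (limma adjusted p = 0.555). LIG1, the ligase that joins Okazaki fragments, was at 54.4 and 45.2 FPKM with INT, 50.8 and 37.7 with P4P6, 48.8 and 44.1 with TOP1, 48.4 and 43.2 with sgRNA and 44.7 and 40.6 with CasVP. It varied most of the 40 genes, also within groups, and the estimate with INT against CasVP was 0.22 (95% confidence interval -0.074 to 0.51).

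**Figure D4:**
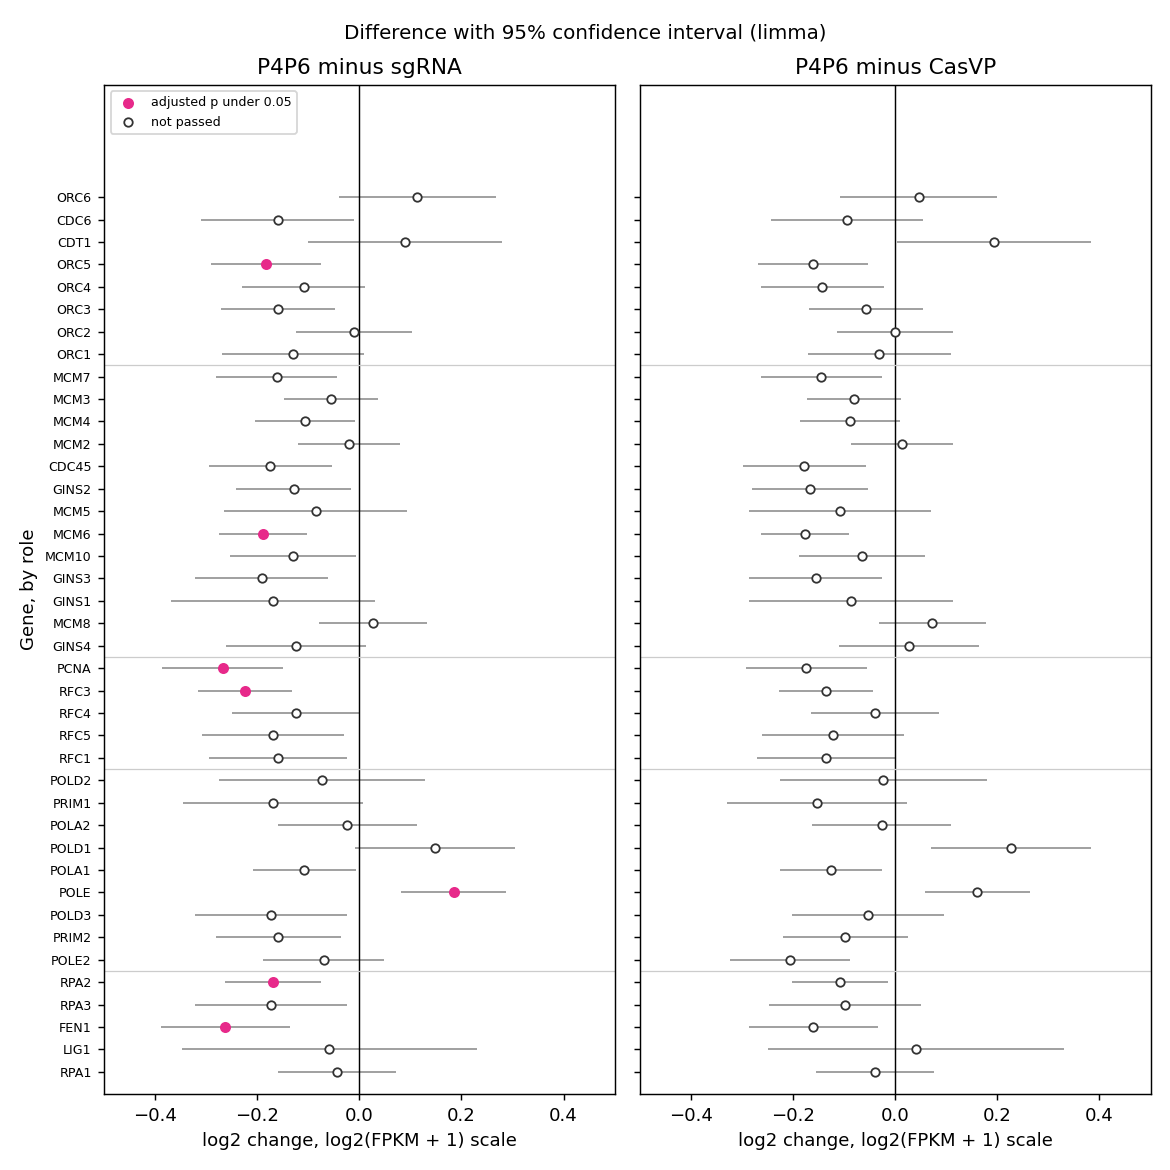
Log2 difference of each of the 40 genes with its 95% confidence interval, for P4P6 minus sgRNA (left) and P4P6 minus CasVP (right), by role. Filled points passed an adjusted p of 0.05: 6 genes lower and POLE higher in the left panel, and none in the right.

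With P4P6 against sgRNA, the comparison with all 7 calls, the median log2 change of the 40 genes was -0.13, against -0.010 for all tested features. The estimate was below 0 for 35 of 40 genes and above 0 for 47.6% of tested features. The median was -0.17 for clamp genes, -0.17 for RPA and lagging strand genes, -0.13 for helicase genes, -0.12 for origin genes and -0.073 for polymerase genes. The libraries did not overlap for 27 genes lower and 2 higher, against 30.6% and 25.9% of tested features. The 7 calls are 17.5% of the 40 genes, against 11.5% of tested features. They rest on the fit over all 10 libraries: fitted on the libraries of both groups alone, 0 of 40 passed (smallest adjusted p = 0.0943), as also without P4P6 replicate 1, without sgRNA replicate 0 or without sgRNA replicate 1. Without P4P6 replicate 0, which leaves P4P6 replicate 1 assumed to vary like the other groups, 17 passed. After quantile normalization only POLE passed.

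Changes also varied with transcript length and GC content, and not in this comparison alone. From the lowest to the highest quartile of GC content, the median of all features with P4P6 against CasVP was -0.060, -0.037, 0.0076 and 0.077. TOP1 against CasVP ran the other way, at 0.035, 0.022, -0.016 and -0.052. For INT and sgRNA against CasVP the medians of the GC quartiles lay between -0.012 and 0.010. With P4P6 against sgRNA the median log2 change of all features was -0.089, -0.020, 0.014 and 0.042 from the shortest to the longest quartile of transcripts, and -0.069, -0.046, 0.014 and 0.090 from the lowest to the highest quartile of GC content. The replication genes followed the same order below those medians, with -0.17, -0.16, -0.11 and -0.041 by length (10, 13, 13 and 4 genes) and -0.16, -0.14, -0.096 and -0.020 by GC content (9, 16, 10 and 5 genes). PCNA has a transcript of 1359 bases with 45.3% GC, and POLE one of 7840 bases with 56.4% GC. POLE2 has one of 1792 bases with 43.7% GC. CDT1 and POLD1, also higher with P4P6 than with CasVP without overlap, have 64.91% and 64.97% GC, in the highest quartile. MCM8, higher in the same way, has 41.985% GC. The 5 replication genes of the highest GC quartile had a median of 0.013 with P4P6 against CasVP. The part of GC content in the changes of these single genes against CasVP was not tested. With the trends in length and GC content removed from each library, 0 of the 40 passed (smallest adjusted p = 0.0769), and the median change was -0.084. FEN1 then had a difference of -0.24, PCNA had -0.097, RFC3 -0.080, RPA2 -0.058 and POLE 0.040. MCM6 and ORC5, which also passed in the main fit, were not followed singly under this setting.

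**Figure D5:**
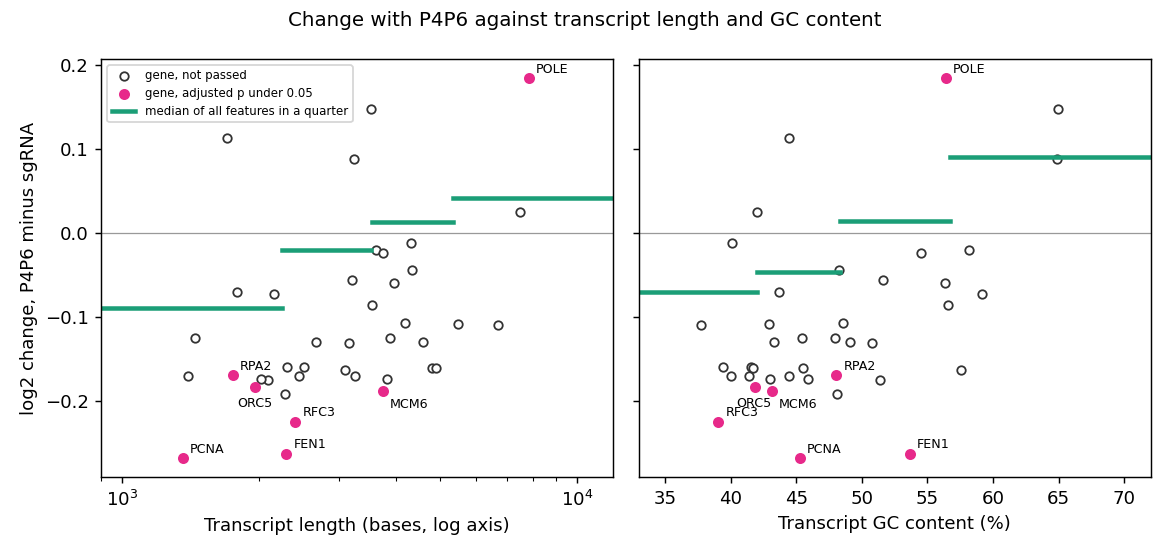
Log2 change with P4P6 minus sgRNA (vertical axis) of each gene against its transcript length in bases (left, log axis) and GC content in percent (right). Green bars are medians of all tested features in each quartile of length or GC content, running from -0.089 to 0.042 and from -0.069 to 0.090, and most of the replication genes lie below the bar of their quartile.

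Other genes of the pathway were described from lists of non-members. In every comparison other than P4P6 against sgRNA, 0 of them passed. With P4P6 against sgRNA, 11.5% of all tested features passed. Of 17 tested features of licensing and firing regulators, where MCM9 counts more than once, 1 rose and 3 fell, with a list median of -0.15. GMNN, the inhibitor of CDT1, was at 122 ± 4.06 FPKM with P4P6 and 144 ± 0.177 FPKM with sgRNA (SD, n = 2 each, limma adjusted p = 0.0259 over all features). DTL, which directs the destruction of CDT1, and the firing kinase CDC7 also fell, by 0.20 and 0.19 on the log2 scale. RECQL4, a helicase needed for origin firing, rose by 0.24 (limma adjusted p = 0.0272). Of 19 fork accessory genes, CHAF1A, a histone chaperone subunit, rose by 0.15, and POLD4, the small subunit of polymerase delta, and RNASEH2B fell by 0.37 and 0.30, with a list median of -0.12.

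Of 9 nucleotide supply genes RRM1, the large subunit of ribonucleotide reductase, fell by 0.22, with a list median of -0.15, and of 14 mitotic genes 0 passed, with a list median of -0.055. Of 5 tested genes typical of HEK293 cells LIN28B, which blocks maturation of let-7 microRNAs, fell by 0.20 (limma adjusted p = 0.0412), with a list median of -0.19. The summed level of the 7 listed HEK293 genes was 88.2 to 92.7 FPKM with INT, 80.4 to 88.05 with P4P6, 90.9 to 97.3 with TOP1, 90.6 to 91.4 with sgRNA and 84.6 to 87.8 with CasVP. The sums of the P4P6 libraries lay below those of both sgRNA libraries, as did the values of 27 replication genes, and the part of the HEK293 genes in that change was not tested. COL1A1, the single marker of another cell type that was tested, had an estimate of 0.20, which did not pass. On the libraries of both groups alone, 2 of all tested features passed in this comparison, and 6 with the trends in length and GC content removed. Against CasVP, CHTF18, part of an alternative clamp loader, had the largest estimate among the listed genes with P4P6, 0.42 (limma adjusted p = 0.0816), with 27.5 ± 0.561 FPKM with P4P6 and 20.3 ± 0.286 FPKM with CasVP (SD, n = 2 each). CCNE1, the cyclin that acts with CDK2 at the G1 to S transition, was at 18.3 ± 0.0441 FPKM with TOP1 and 15.8 ± 1.12 FPKM with CasVP (SD, n = 2 each, limma adjusted p = 0.533 over all features).

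Some of these values cannot be assigned to 1 gene. The library kit does not keep the strand, and in GENCODE v29 an exon of 15 of the 40 genes overlaps an exon of another gene, 13 of them on the opposite strand. FEN1 overlaps TMEM258 and FADS2, MCM7 overlaps AP4M1 and RFC4 overlaps EIF4A2, so their reads could be shared. Pseudogenes named after 6 of the genes, among them 3 of PCNA, 3 of RPA2, and 1 each of RFC3 and FEN1, could take or give reads, and how the counting treated such reads is not given in the sources used here.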

How the data were processed

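The values are FPKM, deposited by the authors as 1 table with a column for each of the 10 libraries. The submitters' processing notes name the build hg19, TopHat2 2.0.13 and Cuffdiff 2.2.1. The annotation, and the treatment of reads that fit several genes, are not given in the sources used here, and per the labels' protocols the libraries were made with the TruSeq kit v2, which does not mark strand. Column indices were not matched to the labels' replicate numbers.

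Differences were computed on log2(FPKM + 1) with limma 3.58.1 in R 4.3.3, for the 11574 of 19301 named features that averaged 1 FPKM or more, with an intensity trend and a mean for each group, all 10 libraries in 1 fit (5 residual degrees of freedom). P-values are two-sided, with Benjamini-Hochberg adjustment over the features of each comparison and a threshold of 0.05. The fit was tested on simulated data. A fold change on this scale understates that of low features.

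The 41 genes and the pathway lists (licensing and firing, fork accessory factors, nucleotide supply, mitosis, HEK293 genes and markers of other cell types) were chosen with earlier results of these data known. Values in every library are given for the highest and lowest gene of each role, for genes that passed (up to 3 each way per comparison) or otherwise the 2 largest changes each way without overlap, and for PCNA, MCM2, CDC6, CDT1 and ORC1. ORC5 and MCM6, which also passed, were added after their values were seen. Listed genes that passed, and CHTF18 and CCNE1, are named for their change. Transcript lengths and GC content come from GENCODE v29 and cover 94.8% of tested features and the 40 genes. They, and the promoters from RefSeq on GRCh38.p14, were matched by gene name, not by position.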

Additional observations from a re-analysis of the deposited data

How the results depend on the processing

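The sign of the median change of the 40 genes was the same in all 8 comparisons under a pseudocount of 0.1, no filter, a minimum of 5 FPKM, median-of-ratios rescaling, quantile normalization, no trend and a replicate block, in 7 comparisons fitted on the compared groups alone (not run for all guides), and also under 2 alternatives chosen after seeing the data (length and GC trends removed, 33 genes by exact name only). It turned for small medians when 1 library was left out: the median with INT against CasVP was 0.0039 without INT replicate 1 (-0.025 with all), and with TOP1 against sgRNA it was -0.010 without sgRNA replicate 1 and -0.0032 without TOP1 replicate 0 (0.021 with all). For all guides against CasVP it was -0.020 to 0.014, and above 0 without CasVP replicate 0 or without replicate 1 of INT, P4P6, TOP1 or sgRNA. Quantile normalization also made the medians smaller with INT against sgRNA (-0.012, against -0.045) and TOP1 against sgRNA (0.014, against 0.021), and against CasVP with INT (-0.0052, against -0.025), TOP1 (0.019, against 0.047) and sgRNA (0.011, against 0.041). With the guides other than P4P6, also chosen afterwards, the median for all guides against CasVP was 0.025, against -0.0058. For P4P6 the size moved by more than the spread between replicates: against CasVP the median was -0.092, but -0.038 after quantile normalization and -0.043 with length and GC trends removed, and -0.13 to -0.048 when 1 library was left out. Against sgRNA it was -0.13, but -0.070 and -0.084 under the same 2 settings, and -0.18 to -0.089 when 1 library was left out.

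Of the 40 genes, 7 passed with P4P6 against sgRNA, and 6 with no filter, where ORC5 did not pass. The number was 1 (POLE) after quantile normalization, 4 (FEN1, MCM6, PCNA and RFC3) without the trend, 0 on the compared groups alone, 0 with length and GC trends removed, and 0 to 17 when 1 library was left out. Of all features, 1331 passed in this comparison (501 higher), but 388 after quantile normalization (298 higher), 641 with no filter, 668 without the trend, 2 on the compared groups alone, 6 with length and GC trends removed and 1 to 2045 when 1 library was left out. With P4P6 against CasVP, 0 of the 40 passed, and 0 to 5 when 1 library was left out (the 5 without P4P6 replicate 0 were CDC45, GINS2, MCM5, ORC5 and PRIM1). There 1 feature passed, but 7 after quantile normalization and 1 to 765 when 1 library was left out. The causes were not tested.

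With the column index as a replicate block, 16 of the 40 genes passed with P4P6 against sgRNA and 3 against CasVP (MCM6, PCNA and POLE), as did 2326 and 600 features. The difference of index 0 minus index 1 was compared between groups over all tested features. Its correlation ranged from r = -0.036 (INT and TOP1) to 0.42 (P4P6 and sgRNA), and genes are not independent replicates. With only 2 indices the labels do not show that they pair the libraries.

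With 2 libraries a group, changes of the size seen here, mostly under 0.2 on the log2 scale, are near the limit of what the test can show. Total read counts are unknown.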
